A study of Homo sapiens with 15 samples.

Results

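Cells cut and remodel the matrix around them with secreted and membrane-bound proteases, and they hold these enzymes in check with dedicated inhibitors. The transcripts of 6 families of such proteins were followed in HCC95 cells after knockdown of the transcription factors KLF5, TP63, SOX2 or GRHL2. Membership was set by gene name, and the families were chosen with earlier results of these data known. The families held 71 of the 61544 genes in the deposited table. They comprised 15 tissue kallikreins (KLK), 22 matrix metalloproteinases (MMP), 4 tissue inhibitors of metalloproteinases (TIMP), 13 clade B serpins (SERPINB), 14 type II transmembrane serine proteases (TMPRSS), and 3 genes of the plasminogen activators and their receptor (PLAU, PLAT and PLAUR). Of these, 48 had enough counts to be tested and 23 had not.

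All groups share HCC95, an established line grown from a human lung squamous cell carcinoma (LUSC). Cells were transfected with siTP63b, siSOX2b, siKLF5b or siGRHL2a, each of them 1 small interfering RNA (siRNA) against the named gene, or with the negative control siRNA siNC1. Each of the 5 groups had 3 libraries of polyadenylated RNA, and the time between transfection and RNA harvest is not given in the sources used here. Nothing in the labels says whether the 3 libraries of a group came from separate cultures, so the p-values measure the spread between libraries, which may be technical.

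Library totals ranged from 15655495 to 34229063 counts. Column names of the table part the libraries into 2 sets, siTP63b, siSOX2b and siGRHL2a in one and siNC1 and siKLF5b in the other. Among genes with moderate counts, 66.1% to 69.0% of values were even numbers in the 9 libraries of the first set, against 49.7% to 50.7% in the 6 of the second. The cause was not tested, and raw counts of the 2 sets may therefore not be comparable. The column set and the knockdown cannot be told apart between the sets. siKLF5b was therefore compared with siNC1, and siTP63b, siSOX2b and siGRHL2a were compared only with each other. As a check of the labels, KLF5 was at 72.5 CPM (counts scaled to the library total) in siKLF5b and 113 CPM in siNC1, a log2 fold change (log2FC) of -0.64 (SE 0.06). TP63 had a log2FC of -0.93 in siTP63b against siSOX2b and -1.19 against siGRHL2a. SOX2 was at 8.97 CPM in siSOX2b, 29.6 CPM in siTP63b and 20.2 CPM in siGRHL2a. GRHL2 differed least, at 91.3 CPM in siGRHL2a, 100 CPM in siSOX2b and 117 CPM in siTP63b, with a log2FC of -0.14 (SE 0.05) in siGRHL2a against siSOX2b.

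Matrix metalloproteinases are zinc enzymes that cleave collagens, laminins and other matrix proteins, and TIMPs block them by binding the active site. TIMP2 has a further role, since a complex of TIMP2 with the membrane enzyme MMP14 brings the proenzyme of MMP2 to the cell surface for activation. Tissue kallikreins are secreted serine proteases, several of which loosen cell contacts in the outer layers of squamous epithelia. Transmembrane serine proteases act at the cell surface, and urokinase (PLAU) and tissue plasminogen activator (PLAT) convert plasminogen to plasmin. Clade B serpins lack a classical signal peptide and many of them protect epithelial cells against proteases.

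The promoters of 5 members with called changes are printed for their sequence context, since counts per gene do not show which start was used. MMP10 and MMP7 lie in the metalloproteinase cluster of chromosome 11 and differed in opposite directions in siTP63b against siSOX2b. Of the 3 knockdowns in that column set, MMP10 was lowest in siTP63b and MMP7 in siSOX2b. TIMP3 is an abundant inhibitor that was lower in siTP63b against siSOX2b, and SERPINB2 and KLK6 fell in siKLF5b. Each sequence is the 250 bases before a RefSeq transcript start on GRCh38.p14, read 5′ to 3′ on the strand of the gene. MMP10 lies at chr11:102780629-102780878 (minus strand), MMP7 at chr11:102530748-102530997 (minus strand), TIMP3 at chr22:32801455-32801704 (plus strand), SERPINB2 at chr18:63887455-63887704 (plus strand) and KLK6 at chr19:50969592-50969841 (minus strand). The RefSeq start of SERPINB2 lies inside the counted span of the gene (63871692 to 63903888). Capitals mark matches, on either strand, to AP-1 (TGANTCA), KLF (CACCC), GRHL (AACCGGTT) or SOX (ACAATG or ACAAAG) motifs.
MMP10: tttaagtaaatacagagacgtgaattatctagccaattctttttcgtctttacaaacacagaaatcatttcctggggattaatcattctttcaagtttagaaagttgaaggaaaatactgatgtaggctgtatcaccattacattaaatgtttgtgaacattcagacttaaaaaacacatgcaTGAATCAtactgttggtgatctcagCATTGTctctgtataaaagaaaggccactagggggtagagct
MMP7: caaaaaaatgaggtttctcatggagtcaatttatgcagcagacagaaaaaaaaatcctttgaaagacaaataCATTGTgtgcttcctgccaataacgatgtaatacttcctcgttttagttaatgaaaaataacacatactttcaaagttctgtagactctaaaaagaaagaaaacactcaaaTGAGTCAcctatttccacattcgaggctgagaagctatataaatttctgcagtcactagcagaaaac
TIMP3: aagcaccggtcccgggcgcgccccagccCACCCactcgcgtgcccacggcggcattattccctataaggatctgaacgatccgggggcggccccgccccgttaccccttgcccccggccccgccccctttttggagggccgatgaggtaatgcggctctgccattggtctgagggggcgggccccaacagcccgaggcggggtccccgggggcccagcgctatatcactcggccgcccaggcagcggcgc
SERPINB2: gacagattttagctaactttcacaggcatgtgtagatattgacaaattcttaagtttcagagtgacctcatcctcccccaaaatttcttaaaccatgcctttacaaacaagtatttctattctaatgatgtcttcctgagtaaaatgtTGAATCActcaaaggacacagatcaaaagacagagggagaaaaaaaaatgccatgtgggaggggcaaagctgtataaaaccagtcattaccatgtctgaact
KLK6: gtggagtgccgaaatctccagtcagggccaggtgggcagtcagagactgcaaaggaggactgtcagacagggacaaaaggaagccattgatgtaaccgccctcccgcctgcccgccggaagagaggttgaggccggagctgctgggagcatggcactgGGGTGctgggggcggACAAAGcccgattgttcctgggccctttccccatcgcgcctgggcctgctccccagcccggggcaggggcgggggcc

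In these windows, MMP10 and MMP7 both held an AP-1 match whose first base was 67 bases before the start, TGAATCA in MMP10 and TGAGTCA in MMP7. SERPINB2 held TGAATCA at 102 bases before the start. A SOX match lay at 42 bases before the start of MMP10, 178 bases before that of MMP7 and 77 bases before that of KLK6. A KLF match lay at 222 bases before the start of TIMP3 and 92 bases before that of KLK6. RefSeq promoters were matched by symbol for 49 of the 71 members, with 66 starts in all, some of which overlap. The AP-1 motif was in 12 of the 66 (18.2%) and in 6.57% of all 35116 promoters, and the SOX motifs were in 24 (36.4%) and in 21.2% of all. The KLF motif was in 38 (57.6%) and in 54.7% of all, and the GRHL motif was in 0 of the 66 and in 0.117% of all. Promoters of MMP13, MMP2, TIMP2, KLK8, SERPINB10, SERPINB11, TMPRSS2, TMPRSS4 and TMPRSS13 were not used here. A match of letters is a description and not a binding site.

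Levels of different genes were compared per length, as CPM per kilobase of merged exons in siNC1. Counts were taken over the whole span of each gene, introns and reads shared with overlapping genes included, so the order is approximate. SERPINB5 (maspin), a clade B serpin of epithelial cells, ranked first at 64.0 CPM per kilobase, followed by PLAU at 54.5. MMP14, the membrane-type collagenase, was at 19.5, PLAT at 15.3, SERPINB13 at 14.1, TIMP3 at 12.8, MMP2 at 10.6 and TIMP2 at 9.13 CPM per kilobase. The leading transmembrane serine protease was TMPRSS4 at 3.66 CPM per kilobase, and the leading kallikrein was KLK6 at 1.13. HCC95 cells held transcripts of several inhibitors and of the plasminogen activators well above those of the kallikreins. The 23 members that were not tested reached at most 14 counts in any library. They were KLK2, KLK3, KLK4, KLK12, KLK13, KLK14, KLK15, MMP3, MMP8, MMP9, MMP12, MMP20, MMP26, MMP27, TIMP4, SERPINB1, SERPINB4, SERPINB9, TMPRSS3, TMPRSS7, TMPRSS11B, TMPRSS12 and TMPRSS15. Of these, 5 had at most 3 counts in every library, and KLK2 had 0 throughout.

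Many members share reads with a neighbour, because the counted length of each gene was its whole span and reads were counted for both of a pair of overlapping genes. In all, 41 of the 71 overlapped another listed gene, and 25 of the 48 tested overlapped one with at least 20% as many counts. The C10orf55 gene, on the opposite strand of PLAU, had 99.8% to 100% of the counts of PLAU in each library. SYN3, which encloses TIMP3 on the opposite strand, had 100% to 102% of the counts of TIMP3, and SYN1 had 100% to 107% of those of TIMP1. Reads of these pairs cannot be told apart. No other listed gene overlapped MMP7, MMP13, KLK11, SERPINB7, TMPRSS11E, TMPRSS13 or PLAT.

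KLF5 knockdown lowered a set of inhibitors and proteases and raised none of the 48 members past the thresholds. TIMP2 and MMP2, both abundant, fell to 1.92-fold and 1.69-fold lower levels. Serpins SERPINB2, SERPINB10 and SERPINB7 and the kallikreins KLK11 and KLK6 fell as well, at lower counts. A gene was called when its edgeR quasi-likelihood test, with Benjamini-Hochberg adjustment over all genes, had p below 0.05 and its log2FC exceeded 0.75 in size. In siKLF5b against siNC1, 7 of the 48 members were called lower, where 1.37% of all 25108 genes tested were, and 0 were called higher, where 1.89% of all genes were. DESeq2 called 0 members higher as well. An unadjusted edgeR p below 0.05 in either direction was found for 20 of the 48 members and for 8367 of all 25108 genes tested. The median log2FC was -0.27 over the members, with 32 of 48 below 0, and -0.01 over all genes, with 12876 of 25108 below 0.

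**Figure D1:**
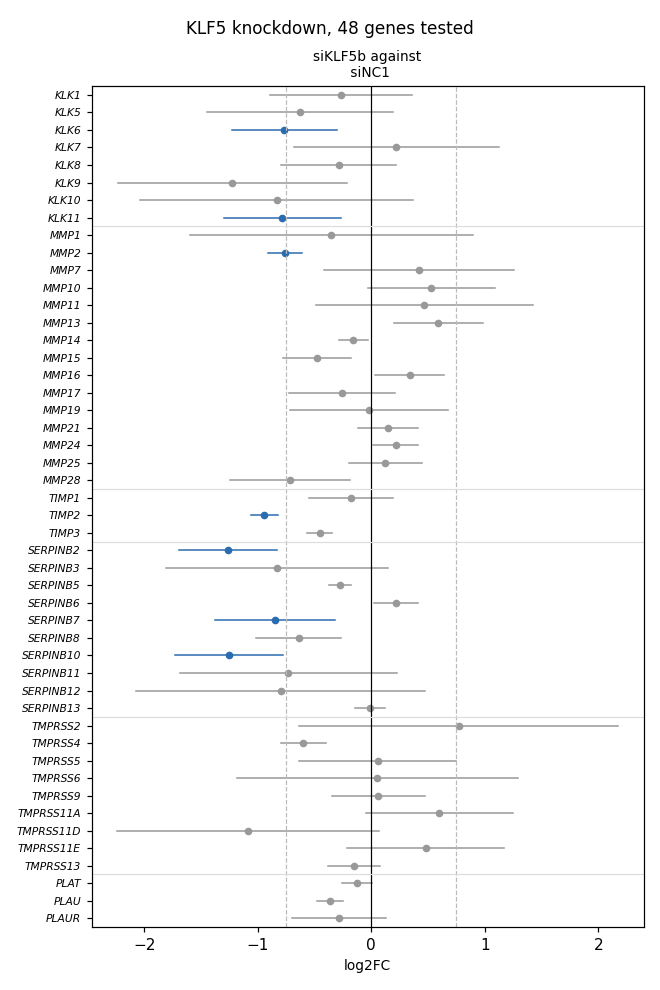
Difference of each of the 48 tested genes in siKLF5b against siNC1 (log2FC on the x axis, 3 libraries a group, bars of 2 SE on each side, dashed lines at 0.75 in either direction, blue for genes called lower and grey for genes not called). The 7 called genes lie to the left of the dashed line at -0.75, and TIMP2 and MMP2 have the narrowest bars among them.

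TIMP2, the inhibitor that also takes part in the activation of MMP2, was at 58.4, 52.8 and 58.8 CPM in the siNC1 libraries and at 29.4, 29.6 and 29.6 CPM in those of siKLF5b. The groups did not overlap and the siKLF5b libraries were nearly identical. The log2FC was -0.94 (SE 0.06, adjusted p = 1.4e-13 by edgeR). MMP2 (gelatinase A) was at 55.7, 48.6 and 45.8 CPM in siNC1 and at 32.3, 26.6 and 30.0 CPM in siKLF5b. Every siKLF5b library was below every siNC1 library. The log2FC was -0.76 (SE 0.07, edgeR adjusted p = 2.6e-09), just past the threshold of 0.75, and it was -0.68 without siNC1 replicate 1 and -0.69 without siKLF5b replicate 2, short of that threshold. MMP14, the third gene of this activation complex, had a log2FC of -0.16 (SE 0.06, edgeR adjusted p = 0.0707) and was not called. TIMP3, an inhibitor bound to the matrix, had a log2FC of -0.45 (SE 0.06, edgeR adjusted p = 1.87e-07), below the fold threshold, with 58.2, 60.6 and 58.0 CPM in siNC1 and 42.6, 42.6 and 44.1 CPM in siKLF5b. CEP295NL, which overlaps TIMP2 on the same strand, had 12.5% to 18.6% as many counts as TIMP2.

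The other metalloproteinases changed less in siKLF5b. Of the 15 tested, MMP2 alone was called, 7 were below 0, and the median log2FC was 0.12. MMP13, a collagenase, had 57, 32 and 48 counts in siNC1 and 67, 69 and 60 counts in siKLF5b. Its log2FC of 0.59 (SE 0.20, edgeR adjusted p = 0.0277) was under the fold threshold. MMP28 (epilysin), an enzyme of keratinocytes, had a log2FC of -0.72 and MMP15, a membrane-type enzyme, one of -0.48, both short of that threshold.

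Among the 10 clade B serpins tested, 3 were called lower in siKLF5b, 9 were below 0, and the median log2FC was -0.77. Of all 25108 genes tested, 1.37% were called lower and 12876 were below 0. SERPINB2 and SERPINB10 share reads, as do SERPINB3 and SERPINB11, so the 10 serpins are not 10 independent measurements. SERPINB2, the plasminogen activator inhibitor known as PAI-2, had 46, 51 and 60 counts in siNC1 and 14, 32 and 17 counts in siKLF5b. The groups did not overlap, and the log2FC was -1.26 (SE 0.22, edgeR adjusted p = 4.14e-05). SERPINB10, a neighbouring serpin of blood cells, had 36, 42 and 53 counts in siNC1 and 16, 28 and 9 counts in siKLF5b, with a log2FC of -1.25 (SE 0.24, edgeR adjusted p = 0.00016). The pair share 6715 bases on the same strand, and SERPINB10 had 52.9% to 114% as many counts as SERPINB2, so they are not independent measurements. SERPINB7, a serpin of the epidermis, had 43, 33 and 36 counts in siNC1 and 23, 27 and 10 counts in siKLF5b, again without overlap. Its log2FC was -0.85 (SE 0.26, edgeR adjusted p = 0.0177). The edgeR adjusted p was 0.0704 without siNC1 replicate 1 and 0.0887 without siKLF5b replicate 3. SERPINB8 had a log2FC of -0.64 (SE 0.19, edgeR adjusted p = 0.0115), short of the fold threshold. SERPINB5, the most abundant member, differed by -0.27 (SE 0.05), from a mean of 240 CPM to 198 CPM. SERPINB13 (hurpin), a keratinocyte serpin, was at 61.3, 66.6 and 63.8 CPM in siNC1 and 64.4, 62.6 and 62.7 CPM in siKLF5b, with overlapping groups and a log2FC between -0.14 and 0.12 (2 SE on each side).

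Among the 8 kallikreins tested, 2 were called lower in siKLF5b, 7 were below 0, and the median log2FC was -0.70. The shares over all 25108 genes tested were 1.37% called lower and 12876 genes below 0. KLK11 (hippostasin) had 47, 36 and 58 counts in siNC1 and 26, 24 and 27 counts in siKLF5b, without overlap. Its log2FC was -0.78 (SE 0.26, edgeR adjusted p = 0.0256), and leaving out a library raised the adjusted p to 0.101 (siNC1 replicate 3), 0.0864 (siKLF5b replicate 1) or 0.16 (siKLF5b replicate 2). KLK6 (neurosin) had 60, 29 and 58 counts in siNC1 and 22, 37 and 23 counts in siKLF5b. In CPM the lowest siNC1 library was at 1.59 and the highest siKLF5b library at 1.52, so the groups were separated by little. The log2FC of KLK6 was -0.76 (SE 0.23, edgeR adjusted p = 0.014), and it became 0.0949 when siNC1 replicate 1 was left out, 0.0556 for siNC1 replicate 3 and 0.108 for siKLF5b replicate 1. KLK6 overlaps an unnamed antisense gene (ENSG00000267879) with 179% as many counts. All calls on kallikreins in siKLF5b thus rest on 22 to 60 counts per library.

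The 9 transmembrane serine proteases tested and the 3 plasminogen genes were not called in siKLF5b by edgeR. In each group 1 gene had an unadjusted p below 0.05, TMPRSS4 and PLAU, where 8367 of all 25108 genes tested had one. TMPRSS4, a protease found in several carcinomas, came closest among the well-counted ones, at 40.1, 33.4 and 35.6 CPM in siNC1 and 25.7, 21.4 and 25.2 CPM in siKLF5b. The groups did not overlap and the log2FC was -0.60 (SE 0.10, edgeR adjusted p = 2.85e-05), under the fold threshold. PLAU differed by -0.36 (SE 0.06, edgeR adjusted p = 1.14e-05), from a mean of 161 CPM to 125 CPM. PLAT differed by -0.13 (SE 0.07, edgeR adjusted p = 0.18), with overlapping groups.

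Within the other column set, the stromelysin MMP10 and the collagenase MMP13 were lower in siTP63b than in either of the other knockdowns. TIMP3 and the kallikreins KLK8 and KLK9 were lower in siTP63b than in siSOX2b, and the protease TMPRSS13 was highest in siTP63b and lowest in siGRHL2a. This set holds no control siRNA, so a lower level in one knockdown cannot be told from a higher level in the others. The 3 comparisons share libraries and are therefore not independent. In siTP63b against siSOX2b, 5 of 48 members were called lower (2.82% of all genes tested) and 2 higher (3.88% of all genes). In siTP63b against siGRHL2a, 5 were called lower (3.21% of all genes) and 3 higher (2.18% of all genes). In siGRHL2a against siSOX2b, 2 were called lower (1.05% of all genes) and 4 higher (2.27% of all genes). The median log2FC of the members in the same order was -0.19, -0.15 and -0.11, and that of all genes lay between -0.01 and 0.02.

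**Figure D2:**
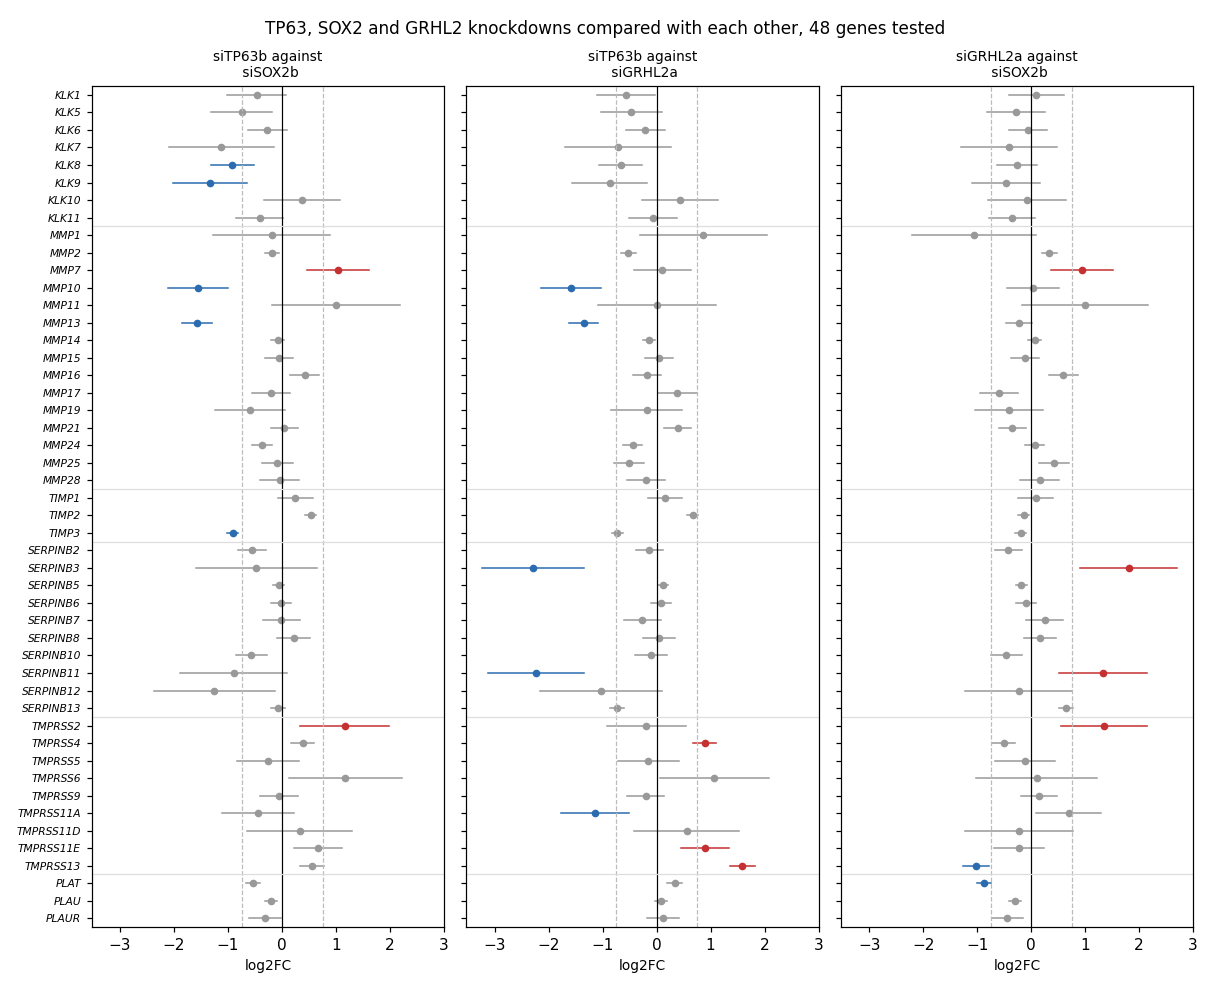
Differences of the 48 tested genes among the TP63, SOX2 and GRHL2 knockdowns (log2FC on the x axis, 3 libraries a group, bars of 2 SE on each side, dashed lines at 0.75 in either direction, blue for genes called lower, red for genes called higher and grey for genes not called). MMP10 and MMP13 are called lower in both comparisons that hold siTP63b, and TMPRSS13 is called in both that hold siGRHL2a.

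MMP13, the collagenase on chromosome 11 (102942995 to 102955732, hg38), was at 4.89, 4.69 and 6.84 CPM in siTP63b, 16.5, 15.9 and 16.4 CPM in siSOX2b, and 15.3, 11.4 and 15.1 CPM in siGRHL2a. Every siTP63b library was below every library of the others. The log2FC was -1.58 (SE 0.14, edgeR adjusted p = 7.72e-11) against siSOX2b and -1.35 (SE 0.14, adjusted p = 2.59e-09) against siGRHL2a. The latter groups differed by -0.22 (SE 0.12, edgeR adjusted p = 0.197). MMP10 (stromelysin 2), which cleaves proteoglycans and activates procollagenases, was at 0.914, 0.680 and 1.28 CPM in siTP63b, 2.94, 1.88 and 3.71 CPM in siSOX2b, and 3.02, 1.99 and 3.61 CPM in siGRHL2a. Its siTP63b libraries held 20 to 36 counts, and those of the other knockdowns 62 to 118. The log2FC of MMP10 was -1.55 (SE 0.28, edgeR adjusted p = 5.37e-05) against siSOX2b and -1.58 (SE 0.27, adjusted p = 3.85e-05) against siGRHL2a. WTAPP1, which covers MMP10 on the opposite strand, had 198% to 560% as many counts, and MMP13 has no such neighbour.

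MMP7 (matrilysin), a small epithelial metalloproteinase, was instead lowest in siSOX2b. It had 44, 48 and 60 counts in siTP63b, 48, 62 and 51 counts in siGRHL2a, and 36, 26 and 13 counts in siSOX2b. In CPM, siSOX2b lay below both. The log2FC was 1.05 (SE 0.29, edgeR adjusted p = 0.0052) in siTP63b and 0.94 (SE 0.28, adjusted p = 0.0149) in siGRHL2a, each against siSOX2b. The adjusted p of MMP7 in siGRHL2a was 0.0564 without siSOX2b replicate 2, 0.0744 without siSOX2b replicate 3 and 0.0699 without siGRHL2a replicate 2. MMP2 and MMP14, by contrast, were not called in these comparisons. MMP2 was lower in siTP63b than in siGRHL2a by a log2FC of -0.52 (SE 0.07, edgeR adjusted p = 2.77e-07), under the fold threshold, from a mean of 80.3 CPM to 56.0 CPM.

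TIMP3 was at 47.1, 44.6 and 46.6 CPM in siTP63b, 86.5, 87.2 and 87.1 CPM in siSOX2b, and 76.3, 73.2 and 79.3 CPM in siGRHL2a. The libraries of each group lay close together and the 3 groups did not overlap. Against siSOX2b the log2FC was -0.91 (SE 0.05, edgeR adjusted p = 7.27e-15). Against siGRHL2a it was -0.73 (SE 0.05, edgeR adjusted p = 2.13e-12), just under the fold threshold. TIMP2 was highest in siTP63b, at 102, 103 and 108 CPM in siTP63b, 71.5, 73.5 and 71.0 CPM in siSOX2b, and 65.8, 64.1 and 66.3 CPM in siGRHL2a. The siTP63b libraries were all above the rest, with a log2FC of 0.53 (SE 0.05, edgeR adjusted p = 1.2e-09) against siSOX2b and 0.67 (SE 0.05, adjusted p = 1.1e-11) against siGRHL2a, both under the fold threshold. TIMP1 was not called in any of the 4 comparisons, with an edgeR adjusted p from 0.266 to 0.753.

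KLK8 (neuropsin), a kallikrein of squamous epithelia and brain, was at 1.99, 1.67 and 2.71 CPM in siTP63b and 4.22, 4.30 and 3.45 CPM in siSOX2b. The groups did not overlap, and the log2FC was -0.92 (SE 0.20, edgeR adjusted p = 0.000498). Against siGRHL2a, at 3.10, 3.26 and 3.70 CPM, it was -0.66 (SE 0.20, edgeR adjusted p = 0.0122). KLK9 had 14, 32 and 14 counts in siTP63b and 67, 62 and 27 counts in siSOX2b, with a log2FC of -1.34 (SE 0.34, edgeR adjusted p = 0.0029). KLK8 and KLK9 overlap each other and the antisense gene ENSG00000267879, which had 158% to 277% as many counts as KLK8. Of the 8 kallikreins tested, 7 were below 0 in siTP63b against siSOX2b and 7 against siGRHL2a. KLK10 was the exception, with a log2FC of 0.37 (SE 0.35) and 0.44 (SE 0.35). Of all 25108 genes tested, 12529 and 12879 were below 0 in the same comparisons.

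SERPINB3, the squamous cell carcinoma antigen, was scarce but was called in both comparisons that hold siGRHL2a. It had 30 counts in each of the 3 siGRHL2a libraries, 10, 4 and 2 counts in siTP63b, and 8, 6 and 8 counts in siSOX2b. Every one of these values is even, so the raw counts may overstate the number of separate reads, which was not tested. The siGRHL2a libraries were above all others. The log2FC was -2.28 (SE 0.47, edgeR adjusted p = 0.00037) in siTP63b against siGRHL2a and 1.81 (SE 0.45, adjusted p = 0.00303) in siGRHL2a against siSOX2b. SERPINB11 encloses SERPINB3 on the opposite strand, and subtracting the counts of SERPINB3 left 0 to 12 counts per library for SERPINB11. Its calls (log2FC -2.23 and 1.33) are therefore largely made of the same reads, and the edgeR adjusted p of the second was 0.0742 without siSOX2b replicate 1, 0.0771 without siSOX2b replicate 2 and 0.0539 without siGRHL2a replicate 3. SERPINB13 was at 93.6, 80.2 and 84.3 CPM in siGRHL2a, 54.4, 49.0 and 52.2 CPM in siTP63b, and 60.0, 52.1 and 52.5 CPM in siSOX2b. The siGRHL2a libraries were above the rest. The log2FC of SERPINB13 was -0.73 (SE 0.06, edgeR adjusted p = 1.05e-10) in siTP63b against siGRHL2a, just short of the fold threshold, which it passed at -0.76 without siTP63b replicate 1 and at -0.78 without siGRHL2a replicate 2. SERPINB5, at means of 389, 407 and 360 CPM in siTP63b, siSOX2b and siGRHL2a, differed by a log2FC of at most 0.18 in size.

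TMPRSS13, a transmembrane protease of stratified epithelia, was at 14.8, 14.1 and 15.4 CPM in siTP63b, 10.2, 10.5 and 9.29 CPM in siSOX2b, and 5.69, 3.86 and 5.20 CPM in siGRHL2a. The 3 groups did not overlap. The log2FC was 1.59 (SE 0.12, edgeR adjusted p = 3.28e-12) in siTP63b against siGRHL2a and -1.03 (SE 0.12, adjusted p = 8.48e-08) in siGRHL2a against siSOX2b. TMPRSS4, which lies near TMPRSS13 on chromosome 11, showed the same order, at 19.7, 14.9 and 19.4 CPM in siTP63b, 14.5, 12.8 and 14.2 CPM in siSOX2b, and 9.34, 9.01 and 10.8 CPM in siGRHL2a. Its log2FC was 0.89 (SE 0.11, edgeR adjusted p = 6.94e-08) in siTP63b against siGRHL2a and -0.51 (SE 0.11, adjusted p = 0.000591) in siGRHL2a against siSOX2b, the latter under the fold threshold. TMPRSS13 spans chr11:117900641-117929459 and TMPRSS4 chr11:118077012-118121890 (hg38).

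TMPRSS11E, a protease of the HAT and DESC subfamily on chromosome 4, had 82, 88 and 76 counts in siTP63b, 61, 48 and 45 counts in siSOX2b, and 51, 48 and 52 counts in siGRHL2a. In CPM the siTP63b libraries were above all others. The log2FC was 0.89 (SE 0.22, edgeR adjusted p = 0.00264) against siGRHL2a and 0.67 (SE 0.22, adjusted p = 0.0209) against siSOX2b, the latter under the fold threshold. TMPRSS11A, of the same subfamily, had 32, 16 and 16 counts in siTP63b and 64, 34 and 62 counts in siGRHL2a, with overlapping groups in CPM and a log2FC of -1.14 (SE 0.31, edgeR adjusted p = 0.00649). UBA6-DT overlaps TMPRSS11A on the opposite strand with 1190% as many counts.

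TMPRSS2, the androgen-regulated protease that primes several respiratory viruses, had 32, 22 and 34 counts in siTP63b, 26, 44 and 44 counts in siGRHL2a, and 20, 14 and 6 counts in siSOX2b. It was called in both comparisons with siSOX2b, with a log2FC of 1.16 (SE 0.41, edgeR adjusted p = 0.0291) in siTP63b and 1.35 (SE 0.40, adjusted p = 0.0127) in siGRHL2a. The first call was lost with DESeq2 (adjusted p = 0.0617) and in edgeR without siTP63b replicate 1 (adjusted p = 0.0674), siTP63b replicate 3 (0.0984), siSOX2b replicate 2 (0.0739) or siSOX2b replicate 3 (0.109). The second was lost without siSOX2b replicate 3 (edgeR adjusted p = 0.0578), siGRHL2a replicate 2 (0.0517) or siGRHL2a replicate 3 (0.057). TMPRSS2 had 1 to 6 counts in the libraries of siNC1 and siKLF5b. It thus passed the low-count filter through siTP63b and siGRHL2a, the groups where it is high. MX1 overlaps TMPRSS2 on the opposite strand with 1020% as many counts.

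PLAT, tissue plasminogen activator, was at 61.9, 55.4 and 62.1 CPM in siGRHL2a, 77.2, 69.6 and 79.0 CPM in siTP63b, and 119, 107 and 101 CPM in siSOX2b. The 3 groups did not overlap. The log2FC was -0.87 (SE 0.07, edgeR adjusted p = 2.09e-11) in siGRHL2a against siSOX2b, and -0.54 (SE 0.07, adjusted p = 1.08e-07) in siTP63b against siSOX2b, the latter under the fold threshold. PLAU, the other activator, differed less, by -0.30 (SE 0.06) and -0.21 (SE 0.06) in the same comparisons. PLAUR, the urokinase receptor, had a log2FC of -0.44 (SE 0.14, edgeR adjusted p = 0.0242) in siGRHL2a against siSOX2b.

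**Figure D3:**
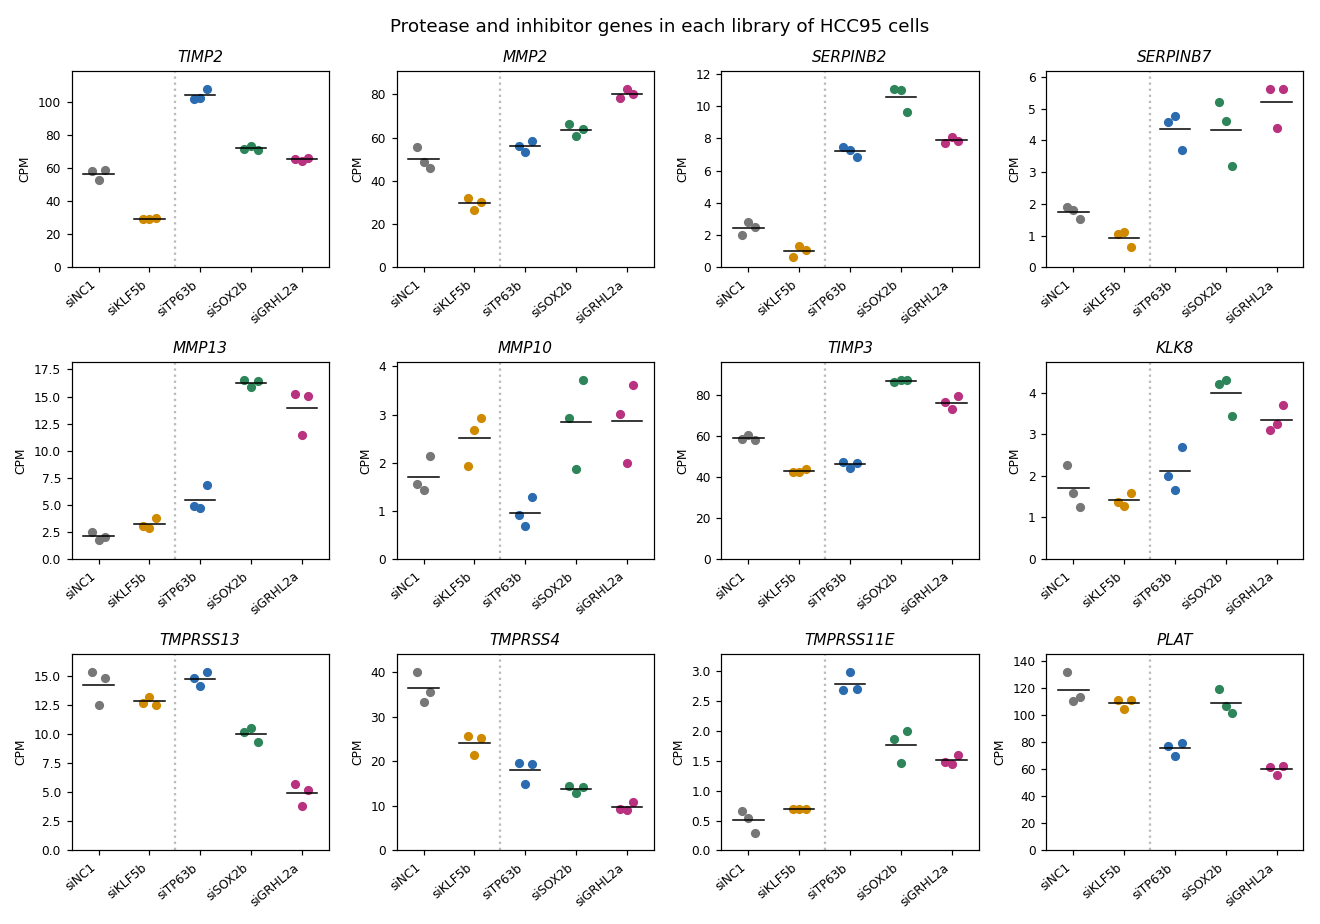
Levels of 12 genes in each of the 15 libraries (CPM on a linear axis from 0, 1 point a library, a bar at the mean of 3, with a dotted line between the 2 column sets). TIMP2 lies near 30 CPM in siKLF5b and above 100 CPM in siTP63b, and MMP13 lies lowest in siTP63b among the 3 knockdowns of its column set.

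Between the column sets, levels are described without a test. All 9 libraries of siTP63b, siSOX2b and siGRHL2a were above all 6 of siNC1 and siKLF5b for 14 of the 48 members tested, where 14.5% of all genes were, and below them for TMPRSS4 alone, where 14.2% of all genes were. The other 33 members overlapped. Among these 15 members without overlap, the ratio of the set means was largest for SERPINB2 (4.93), MMP13 (4.46), KLK10 (4.30), SERPINB10 (4.19) and SERPINB7 (3.46), and it was 0.458 for TMPRSS4. Of these, 3 are clade B serpins on chromosome 18, and SERPINB2 and SERPINB10 among them share reads and are not independent measurements. SERPINB2 was at 2.04 to 2.80 CPM in siNC1 and at 6.84 to 11.1 CPM over the 9 libraries. MMP13 was at 1.76 to 3.82 CPM over the 6 libraries and at 4.69 to 16.5 CPM over the 9. KLK10 had 1 to 8 counts in the 6 libraries and 18 to 32 counts in the 9. It passed the low-count filter only through the 9 libraries where it is high, so its ratio rests on counts near the floor. The set and the knockdown cannot be told apart here.

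**Figure D4:**
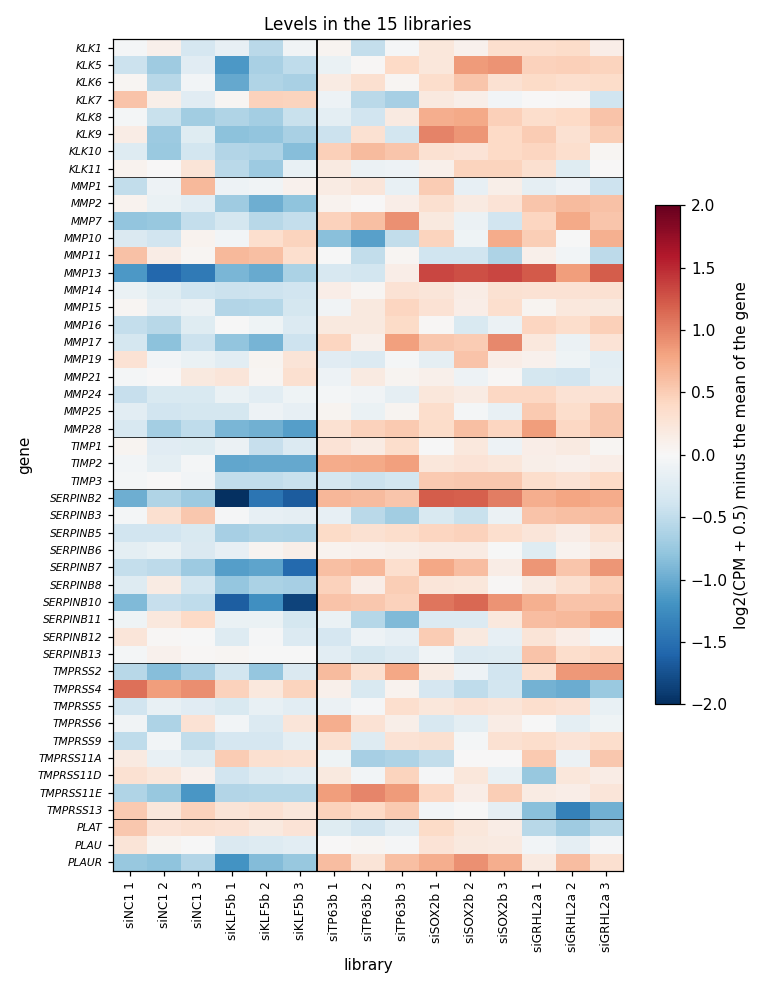
Levels of the 48 tested genes in the 15 libraries, as log2(CPM + 0.5) minus the mean of the gene (colour scale from -2 to 2, genes by family from kallikreins at the top to the plasminogen genes, black vertical line between the 2 column sets). SERPINB2, MMP13 and SERPINB7 are low on the left and high on the right of that line, and TMPRSS4 is the reverse.

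Related protease genes were listed by pathway and counted in the same fit. Of 10 tested genes of the matriptase and prostasin cascade, PRSS8 (prostasin) was called lower in siKLF5b (log2FC -0.86, SE 0.13), and 10 of 10 were below 0. Over all genes tested, 12876 of 25108 were below 0 in that comparison. Of 11 tested Kazal, WAP and cystatin inhibitors, the elastase inhibitors PI3 (elafin, -1.72) and SLPI (-0.97) were called lower in siKLF5b. The kallikrein inhibitor SPINK9 (0.91, SE 0.27) was called higher, from a mean of 1.23 CPM in siNC1 to 2.32 CPM. Of all genes tested, 1.37% were called lower and 1.89% higher in that comparison. In siTP63b against siSOX2b, SPINK9 (1.64), SLPI (1.12) and PI3 (0.92) were called higher, where 3.88% of all genes were. Tryptase epsilon, PRSS22, had the pattern described for TMPRSS13, with a log2FC of 1.73 (SE 0.10) in siTP63b against siGRHL2a and -1.23 (SE 0.11) in siGRHL2a against siSOX2b. Of all genes tested, 2.18% were called higher in the first comparison and 1.05% lower in the second. The thrombin receptor F2R was lower in siTP63b against siSOX2b (-0.85) and siGRHL2a (-0.90), where 2.82% and 3.21% of all genes were called lower.

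In the list of the plasminogen system and other serpins, TFPI2, a Kunitz inhibitor of the matrix, was called higher in siTP63b against siSOX2b (log2FC 1.01, SE 0.19) and against siGRHL2a (1.22, SE 0.19). Of all genes tested, 3.88% and 2.18% were called higher in these comparisons, and 2.82% and 3.21% lower. Of the 18 tested matrix proteases and regulators, ADAMTS1, an aggrecan-cleaving enzyme, was lower in siTP63b in both comparisons (-1.46 and -0.90), and LCN2, which binds MMP9, was higher against siSOX2b (0.86). Of 5 tested genes of the cornified layer, KRT1, a keratin, was called, at 1.08 CPM in siGRHL2a, 0.138 CPM in siTP63b and 0.284 CPM in siSOX2b. Its log2FC was -2.94 (SE 0.67) in siTP63b against siGRHL2a and 1.81 (SE 0.59) in siGRHL2a against siSOX2b. With 0.0731 CPM in siNC1 and 0 CPM in siKLF5b, KRT1 passed the low-count filter through siGRHL2a, the group where it is high. In siKLF5b against siNC1, edgeR called 0 genes of these last 3 lists. An unadjusted edgeR p below 0.05 was found for 4 of 8, 10 of 18 and 1 of 5 tested genes. Of all 25108 genes tested, 8367 had one.

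The summed level of 12 squamous markers, which include the targeted genes TP63 and SOX2 and consist mostly of KRT5, was 10800 to 12400 CPM in siNC1 and 7230 to 8250 CPM in siKLF5b. It was 7050 to 8330 CPM in siTP63b, 10100 to 11100 CPM in siSOX2b and 13000 to 13300 CPM in siGRHL2a. KRT5 alone was at a mean of 8633 CPM in siNC1 and 5363 CPM in siKLF5b. In siKLF5b against siNC1, 3 of the 12 were called lower (KRT14, KRT6A and KRT17), 2 higher (KRT15 and PERP) and 7 were not called. In bulk RNA, fewer cells of a type and less RNA per cell cannot be told apart. Summed levels of the other cell type lists were low. The 8 immune markers summed to 22.7 to 41.0 CPM, mostly CD68 at group means of 22.6 to 34.6 CPM, and CD3E was at 0.0288 CPM or less. The 6 endothelial markers summed to 15.8 to 16.4 CPM in siNC1, 12.9 to 14.6 CPM in siKLF5b and 4.06 to 8.30 CPM over the other 9 libraries, mostly VWF at 14.5 CPM in siNC1 and 3.55 CPM in siSOX2b, with PECAM1 at 0.197 CPM or less. The 8 glandular lung markers summed to 2.74 to 3.23 CPM in siNC1 and siKLF5b and to 5.63 to 11.3 CPM in the other groups, mostly NKX2-1 at group means of 2.43 to 10.01 CPM. The 8 fibroblast markers summed to 3.84 to 10.1 CPM, with DCN at 0.0577 CPM or less. The part of these markers in the results was not tested.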

How the data were processed

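RNA-seq counts of 15 HCC95 libraries, 3 for each of siNC1, siKLF5b, siTP63b, siSOX2b and siGRHL2a, were analysed. HISAT2 2.2.1 was used by the authors for alignment to hg38, and they counted unique alignments on Gencode genes with featureCounts 2.0.1 and deposited raw counts without normalization. Strand use, and whether reads or fragments were counted, are not given in the sources used here. All columns were matched to libraries by name.

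Counts were fitted with edgeR 4.0.16 (R 4.3.3), by one quasi-likelihood fit of all libraries with TMM factors and filterByExpr by group. The Benjamini-Hochberg adjustment ran over 25108 genes, with thresholds of adjusted p below 0.05 and absolute log2FC above 0.75. Each SE was back-calculated as the absolute log2FC divided by the square root of the quasi-likelihood F statistic of that fit. CPM are counts scaled to the TMM-adjusted library total. The fit was tested on simulated counts. Library totals of 15655495 to 34229063 limit the precision of genes with few counts, and replicates differed beyond counting noise. The chi-square per gene was 2.04 to 4.35 in siNC1 and siKLF5b and 4.96 to 8.13 in siTP63b, siSOX2b and siGRHL2a. The one fit used a spread shared by both column sets, so p-values among siTP63b, siSOX2b and siGRHL2a may be too small.

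Named genes were the members past both thresholds with a mean of at least 50 counts in the comparison, then up to 5 uncalled members with at least 500, and up to 5 per direction between column sets. Called members under 50 counts were added after their values were seen, as were TIMP3, MMP2, MMP13 and other uncalled members where a comparison rests on them. The members, gene lists and motifs were chosen with earlier results of these data known. Exon lengths came from Gencode release 44, in which 69 of 71 members had the span of the deposited table, and promoters from RefSeq (GRCh38.p14). Some genes of the lists are not reported here.

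Alternatives were RLE and upper-quartile factors, other low-count filters, DESeq2 1.42.0, other fold thresholds, glmTreat, the compared libraries alone, halved counts in the 9 libraries of one column set, the replicate number as a block, and each library left out in turn.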

Additional observations from a re-analysis of the deposited data

How the results depend on the processing

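Counts of called members depended mainly on the fold threshold. Without one, members lower and higher were 14 and 1 in siKLF5b against siNC1, 12 and 7 in siTP63b against siSOX2b, 11 and 6 in siTP63b against siGRHL2a, and 11 and 8 in siGRHL2a against siSOX2b. Above an absolute log2FC of 1, members lower were 2 in siKLF5b, 3 in siTP63b against siSOX2b and 1 in siGRHL2a against siSOX2b, and 1 was higher in siTP63b against siGRHL2a. With glmTreat, lower and higher were 0 and 0 in siKLF5b, 2 and 0 in siTP63b against siSOX2b, and 0 and 0 in siGRHL2a against siSOX2b, with 1 higher in siTP63b against siGRHL2a. With at least 10 counts in every library, which left 33 members, 0 were higher against siSOX2b in siTP63b and 0 in siGRHL2a, and 3 were lower in siTP63b against siGRHL2a. DESeq2 called 1 higher in siTP63b against siSOX2b. With 1 library left out, members lower in siKLF5b numbered 4 to 9 (4 without siNC1 replicate 1), members higher in siTP63b against siSOX2b 1 to 2 (1 without siTP63b replicate 1 or 3 or siSOX2b replicate 2), and members higher in siGRHL2a against siSOX2b 2 to 4 (2 without siSOX2b replicate 2 or 3 or siGRHL2a replicate 3). MMP2 in siKLF5b was at -0.74 with upper-quartile factors, with the 6 libraries alone and with halved counts, under the fold threshold, and KLK6 at -0.746 with upper-quartile factors. SERPINB13 in siKLF5b, not called, changed sign, to 0.0046 (upper-quartile factors), 0.0022 (6 libraries), 0.0042 (halved counts) and 0.011 (without siNC1 replicate 2), with a range of -0.048 to 0.011 over the libraries left out. The cause of these changes was not tested, beyond the fewer libraries or members left. Of 805 values of named members under an alternative, 728 kept their direction and call, 60 lost the call, 13 gained one and 4 changed sign. The 805 include abundant members that were not called and so had no call to lose, and the 60 losses fall on the called members alone. Same-numbered libraries did not deviate together (correlations -0.083 to 0.0498), and the fit with the replicate block gave 7 lower in siKLF5b, 5 and 2 lower and higher in siTP63b against siSOX2b, 5 and 3 against siGRHL2a, and 2 and 4 in siGRHL2a against siSOX2b.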
